A study of Mus musculus with 8 samples.

Results

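The receptors that bind neurotrophins and ligands of the GDNF family were followed across the neuronal subtypes of the mouse stellate ganglion. The 8 genes, Ngfr, Ntrk2, Ntrk3, Sort1, Ret, Gfra1, Gfra2 and Gfra3, were taken by name from the 19224 genes of the deposited expression table, and each was described across 8 subtypes and across mice.

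Neurotrophins are target-derived growth factors that sympathetic neurons need to survive, to extend axons and to keep their synapses. They bind Trk receptor tyrosine kinases, among them TrkB (Ntrk2), the receptor of BDNF, and TrkC (Ntrk3), the receptor of NT-3. They also bind the p75 receptor (Ngfr), which lacks a kinase and can pair with Trk receptors or with sortilin (Sort1), the partner through which it binds proneurotrophins. Ligands of the GDNF family signal through the Ret kinase, and a GPI-anchored GFRα co-receptor decides which ligand Ret answers to: GFRα1 (Gfra1) prefers GDNF, GFRα2 (Gfra2) neurturin and GFRα3 (Gfra3) artemin. In sympathetic ganglia, artemin is known for guiding early axon growth and neurturin for its part in cholinergic neurons.

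The stellate ganglion is the sympathetic ganglion that supplies the heart and the upper limb. All samples were of 1 condition: C57BL6/J mice aged 8 to 10 weeks, each given AAV-GFP in the heart and AAV-tdTomato in the front paws, with left and right ganglia combined for dissociation and single-cell libraries made on the 10x Genomics system. The deposited table holds 1303 neurons, of which 1002 carry the name of 1 of 5 mice that the labels identify (replicates 1 to 5, 165 to 235 neurons and 916296 to 1196621 unique molecular identifiers, UMIs, each). The other 301 neurons carry mouse names that fit more than 1 label, and they enter only values pooled over neurons. In the study's supplement the 5 matched mice are all of batch 2 and the remaining mice of batch 1. If each name is a separate mouse, the 301 neurons are of batch 1. A difference between matched and unmatched mice can then not be told apart from batch. The authors named 5 noradrenergic subtypes (NA1a, NA1b, NA1c, NA2 and NA3), 2 cholinergic ones (Ach1 and Ach2) and a glutamatergic one (Glut). The subtypes were drawn by clustering these neurons, and differences between them are not independent of that grouping.

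A level is the mean number of UMIs of a gene per 10000 UMIs of a neuron. In the median neuron, with 3676 UMIs, a single UMI amounts to 2.72 per 10000, so a neuron without a UMI may still hold the transcript. No other cell type is in the table, and the share of neurons that free RNA alone would give was therefore not measured. Levels per mouse are given where a mouse had at least 10 neurons of a subtype, which left NA1a, NA1b, NA1c and NA2 in 5 mice each, NA3 in 3 and Ach2 in 2. Ach1 reached 10 neurons in replicate 4 only and Glut in no mouse, so both are given as pooled values.

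Some neurons stood apart from their labels. In all, 21 cell barcodes occurred in more than 1 mouse, in up to 5 mice each, and together they took in 73 neurons. These neurons made up 55 of 175 NA2 neurons (31.4%), 15 of 62 Ach2 neurons (24.2%) and 3 of 37 Glut neurons, and occurred in no other subtype. For 20 of the 21 barcodes the neurons had the same subtype name in every mouse. The expression values of NA2 neurons with the same barcode correlated at a mean r of 0.506 over 70 pairs, against 0.461 over 1068 pairs with different shared barcodes in different mice. The main values that rest on NA2 or Ach2 are therefore given with and without these neurons. NA3 and Ach1 carried transcripts of other cell types, among them satellite glia, the cells that wrap ganglion neurons. The summed level of 10 satellite glia genes was 272 in NA3 and 110 in Ach1, against 3.10 to 14.2 in the other subtypes. Fibroblast genes summed to 63.2 in Ach1 and 22.5 in NA3 (1.55 to 3.62 elsewhere), Schwann cell genes to 11.3 and 16.0 (2.31 to 6.07) and immune genes to 10.4 and 1.70 (0.387 to 1.13). The part of these transcripts in the levels of the receptors, or of any other gene, in NA3 and Ach1 was not tested. Chat, which makes acetylcholine, had no UMI in the 64 Ach1 neurons, which limits neurons with a UMI, at a median depth of 2206.5 UMIs, to 4.69% and sets no limit on neurons that express it. The summed level of the cholinergic genes was 4.88 in Ach1 and 97.0 in Ach2, against 0.394 to 1.74 elsewhere. Slc17a6, a vesicular glutamate transporter, was found in 5 of 37 Glut neurons, all 5 from replicate 5.

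Of the 8 receptors, 4 reached the mean level of 0.25 over the 25 profiles (1 per mouse and subtype) that was asked for testing: Ngfr at 3.32, Ret at 0.722, Ntrk2 at 0.606 and Gfra2 at 0.4995. Ntrk3 at 0.242, Sort1 at 0.200, Gfra3 at 0.152 and Gfra1 at 0.0414 did not. Across the 6 subtypes with replicate mice, Ngfr (adjusted p = 0.000155), Ntrk2 (1.02e-09) and Gfra2 (2.57e-09) passed limma's F-test, and Ret did not (0.156). Of all 6385 genes tested, 65.5% passed, so 3 of 4 receptors is close to what any tested gene gave. Against the mean of the other subtypes, 9 of 24 differences of the tested receptors passed, beside 22.3% of the differences of all genes, and between pairs of subtypes 26 of 60 passed, beside 22%. All genes together were shifted in these comparisons, with a median log2 difference from the other subtypes that ran from -0.19 in NA2 to 0.15 in NA1c.

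**Figure D1:**
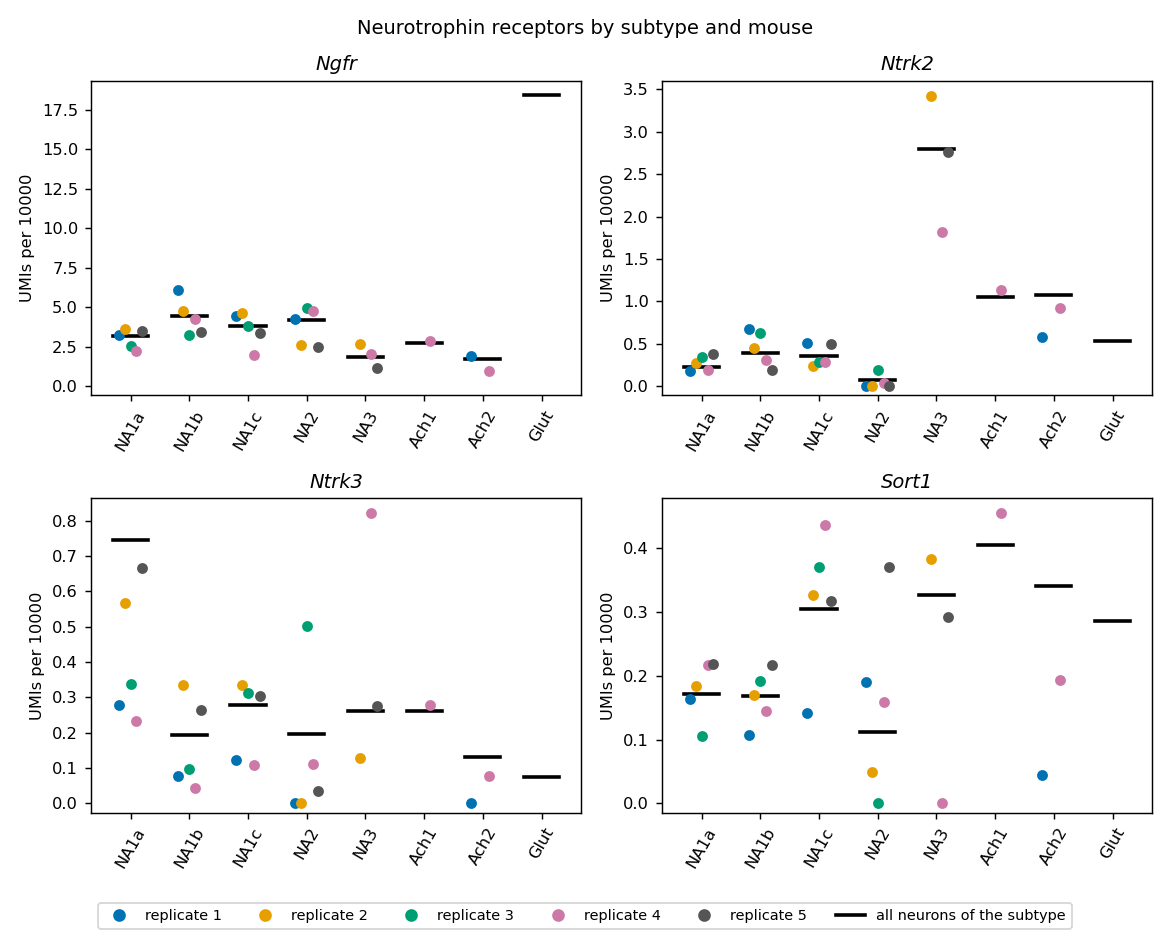
Levels of Ngfr, Ntrk2, Ntrk3 and Sort1 (y axis, UMIs per 10000, linear) in the 8 subtypes (x axis). Each point is a mouse with at least 10 neurons of the subtype and each bar the mean over all neurons of the subtype; Ngfr stood at 18.5 in Glut and Ntrk2 at 2.80 in NA3.

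Ngfr, the p75 receptor, was found in neurons of every subtype, 857 of 1303 in all (65.8%). The gene lies on chromosome 11 at 95568818 to 95587735 of GRCm38, on the minus strand. Its level was 3.24, 3.60, 2.55, 2.26 and 3.48 in NA1a of replicates 1 to 5. In NA1b it was 6.08, 4.74, 3.23, 4.26 and 3.44 in the same mice, and in NA1c 4.45, 4.61, 3.82, 1.98 and 3.35. The 3 NA1 subtypes overlapped, and none of the differences among them passed the test.

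In NA2 the Ngfr level was 4.28, 2.58, 4.98, 4.75 and 2.48, a mean of 3.81 ± 1.20 (SD, n = 5 mice), and 3.69 ± 1.13 (n = 4) without the shared barcodes. NA3 and Ach2 stood lower. In NA3 the level was 2.69, 2.03 and 1.18 in replicates 2, 4 and 5, and in Ach2 it was 1.91 and 0.956 in replicates 1 and 4. Both Ach2 values lay below every value of NA1a, NA1b, NA1c and NA2. Without the shared barcodes the Ach2 mean was 1.30 ± 1.12 (n = 2), and the higher of the 2 values then overlapped NA1c. Ngfr was higher in NA1b than in the mean of the other subtypes by 0.73 on the log2 scale (SE 0.19, adjusted p = 0.00546 by limma), where 18.4% of all genes passed in either direction. It was lower in Ach2, with a log2 difference of -1.25 (SE 0.29, adjusted p = 0.00456), where 6.12% of genes passed. Without the shared barcodes the Ach2 difference was -1.51 (SE 0.31, adjusted p = 0.00108). There 8.27% of genes passed. The call in Ach2 rested on 2 mice. Without replicate 4 (-0.98, adjusted p = 0.169) or replicate 1 (-1.48, adjusted p = 0.0556) it did not pass, but Ach2 is then a single profile whose spread is assumed to be that of the other subtypes. It was also lost in neurons thinned to 2000 UMIs (-1.04, adjusted p = 0.0808) and with profiles weighted by neurons (-1.27, adjusted p = 0.0778). The call in NA1b was lost with 5 neurons per profile in place of 10 (0.88, adjusted p = 0.276). NA2 was higher by 0.48 (SE 0.19, adjusted p = 0.0267), and by 0.58 (SE 0.23, adjusted p = 0.0296) without the shared barcodes, but 59.9% and 51.9% of genes passed there. The NA2 call was lost without replicate 3 (0.35, adjusted p = 0.158), without replicate 4 (0.29, adjusted p = 0.242), with no limit on the level, on summed UMIs, on mean natural log values, with 5 neurons per profile and without the most glial neurons (adjusted p of 0.0719 to 0.365 in the last 5). With each profile set relative to its median gene the NA2 difference was 0.74 (adjusted p = 0.000707).

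Between pairs of subtypes, Ngfr passed in 7 of 15. NA1b exceeded NA3 by 1.03 (SE 0.28, adjusted p = 0.00597, 19.5% of genes passed), but not without replicate 5 (0.78, adjusted p = 0.107) or with 5 neurons per profile (1.08, adjusted p = 0.270). It exceeded Ach2 by 1.65 (SE 0.32, adjusted p = 0.000581, 8.69% passed), and by 1.91 (SE 0.35, adjusted p = 0.000304, 4.38% passed) without the shared barcodes. NA1c exceeded Ach2 by 1.38 (SE 0.32, adjusted p = 0.00282, 13.8% passed), and by 1.64 (SE 0.35, adjusted p = 0.00168, 6.52% passed) without them, though not in thinned neurons (1.17, adjusted p = 0.0573). NA2 exceeded it by 1.44 (SE 0.32, adjusted p = 0.000727, 29.1% passed) with the shared barcodes and by 1.74 (SE 0.36, adjusted p = 0.000176, 36.2% passed) without them. Without replicate 4, which leaves Ach2 a single profile, none of these 3 subtypes passed against Ach2, with differences of 1.36, 1.29 and 1.06 and adjusted p of 0.0520, 0.050001 and 0.0823. For NA3 and Ach2, the neighbors at the low end, the difference did not pass (0.62, SE 0.36, adjusted p = 0.302).

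The pooled Ngfr level in Glut was 18.5, and 29 of 37 neurons (78.4%, 95% exact interval 61.8 to 90.2%) had a UMI. The study used NGFR staining to tell Glut from NA2, so this level is a description. It was not even among mice. In replicate 4 all 7 Glut neurons had Ngfr, at a level of 14.9, and the 3 Glut neurons of replicates 1 and 3 had it too. In replicate 5 none of 7 did, for which a count of 0 leaves room for 42.9% at most, although these were the deepest Glut neurons, with a median of 7781 UMIs. The 20 Glut neurons of the mice not matched to a label had a level of 26.6, with Ngfr in 19. The neurons with Slc17a6 were thus in the mouse whose Glut neurons lacked Ngfr, and the 30 other Glut neurons had no Slc17a6 UMI (at most 10.0% by the same limit).

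Ntrk2, the TrkB gene (chromosome 13, 58806569 to 59133970, plus strand), was highest in NA3. Its level there was 3.43, 1.81 and 2.76 in replicates 2, 4 and 5, and 65 of 99 NA3 neurons (65.7%) had a UMI. In NA1a it ran from 0.178 to 0.374 over 5 mice, in NA1b from 0.195 to 0.673 and in NA1c from 0.237 to 0.511. Every NA3 value lay above every value of the other tested subtypes. The log2 difference of NA3 from the mean of the others was 2.88 (SE 0.39, adjusted p = 1.5e-07 by limma), and 14.5% of all genes passed there.

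Ntrk2 was lowest in NA2, with 7 UMIs in 175 neurons. No UMI was found in NA2 of replicates 1, 2 and 5, and the levels in replicates 3 and 4 were 0.195 and 0.0361. The log2 difference from the mean of the others was -2.49 (SE 0.30, adjusted p = 3.43e-09), and -2.34 (SE 0.34, adjusted p = 3.54e-07) without the shared barcodes. With 59.9% and 51.9% of all genes passing in these comparisons, a call in NA2 is common. Ach2 had Ntrk2 at 0.584 and 0.927 in its 2 mice. The log2 difference of NA2 from Ach2 was -2.79 (SE 0.52, adjusted p = 6.92e-05), and -2.94 (SE 0.54, adjusted p = 4.38e-05) without the shared barcodes. In neurons thinned to 2000 UMIs it was -2.20 and did not pass (adjusted p = 0.0765). The pooled level was 1.07 in Ach2 (1.41 without the shared barcodes), 1.05 in Ach1 and 0.535 in Glut.

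The Ntrk2 level was highest where the satellite glia genes were, in NA3, as the plot of Ntrk2 against their summed level shows. TrkB lacking the kinase is a known glial transcript as well, and the deposited counts, given per gene, do not separate it from the full-length form. The summed glial level of the NA3 profiles ran from 191 to 353, and none of the 10 genes was at 0. In the 22 NA3 neurons below a summed glial level of 87.2, the level that 10% of all neurons exceeded, the Ntrk2 level was 1.41. Of these, 7 (31.8%) had a UMI. Over 1 to 9 such neurons per mouse the Ntrk2 level was 0, 0.713, 0, 1.12 and 1.92 in replicates 1 to 5. Glial content was not equal below the limit, with a summed level of 38.4 in NA3 and 8.81 in the other subtypes. In the 77 NA3 neurons at or above 87.2, the Ntrk2 level was 3.20 and 75.3% had a UMI. The 1150 neurons of other subtypes below 87.2 had Ntrk2 at 0.342, and the 54 at or above it had 0.967. Of these 54, 47 were Ach1 neurons, with Ntrk2 at 1.02 from 8 neurons with a UMI and a summed glial level of 129. In the 17 Ach1 neurons below the limit Ntrk2 was at 1.15, from 5 neurons with a UMI. Their summed glial level was still 56.5, and these few neurons do not show whether Ntrk2 goes with it. Without Ach1, Ntrk2 was at 0.618 in 7 neurons and 0.330 in 1133. Across the NA3 neurons of a mouse the correlation of Ntrk2 with the glial sum was 0.601 over 23 neurons of replicate 2, 0.313 over 14 of replicate 4 and 0.324 over 39 of replicate 5, values that share each neuron's depth. The part of glial transcripts in the NA3 level was not tested.

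**Figure D2:**
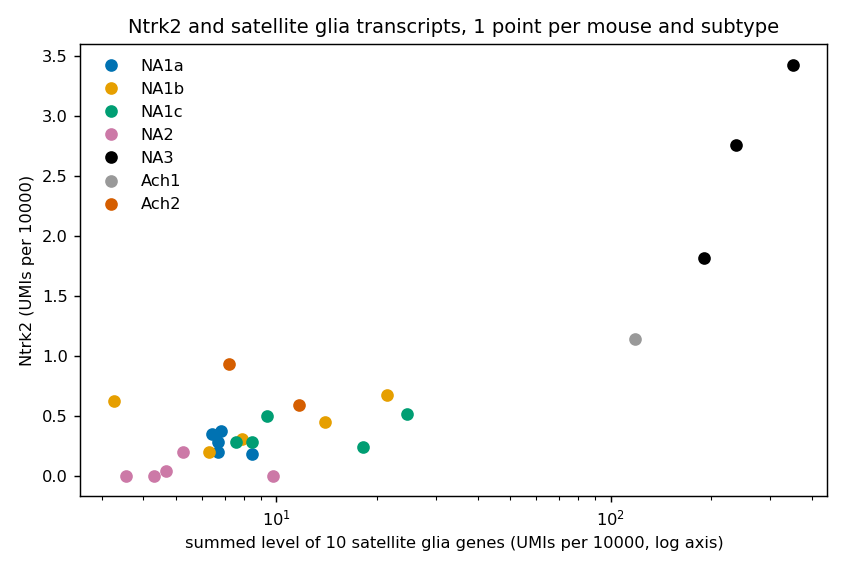
Ntrk2 level (y axis, UMIs per 10000, linear) against the summed level of 10 satellite glia genes (x axis, UMIs per 10000, logarithmic), 1 point for each mouse and subtype with at least 10 neurons. The 3 NA3 points stand alone, at a glial level of 191 to 353 and an Ntrk2 level of 1.81 to 3.43.

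Ntrk3, the TrkC gene (chromosome 7, 78175959 to 78738012, minus strand), was found in 153 neurons and most often in NA1a, in 76 of 316 neurons (24.1%, 95% exact interval 19.4 to 29.2%). The NA1a level was 0.278, 0.566, 0.338, 0.234 and 0.667 in replicates 1 to 5, a mean of 0.417 ± 0.190 (SD, n = 5). The 134 NA1a neurons from the mice not matched to a label had 1.24. In NA1b the mean over mice was 0.164 ± 0.128 and in NA1c 0.237 ± 0.112, with values that overlapped those of NA1a. NA2 had Ntrk3 in 6 of 175 neurons (3.43%) and Ach2 in 3 of 62 (4.84%), or in 6 of 120 (5.00%) and 2 of 47 (4.26%) without the shared barcodes. NA1a neurons were deep, with a median of 6524.5 UMIs against 2461 in NA2. In neurons thinned to 2000 UMIs, 12.7% of NA1a neurons had Ntrk3, against 10.5% in Ach1, 7.14% in NA1c and 1.61% (NA2) to 3.45% (Glut) in the others. Over matched mice the thinned share was 8.06% ± 2.89 in NA1a and 6.75% ± 2.03 in NA1c (SD, n = 5 mice each). It was 10.3% in Ach1 of replicate 4. Ntrk3 did not reach the level for testing, and with no such limit it did not pass the F-test (adjusted p = 0.111).

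Sort1, sortilin (chromosome 3, 108284082 to 108361511, plus strand), was spread thinly over the subtypes, in 128 of 1303 neurons (9.82%). Its pooled level ran from 0.111 in NA2 to 0.405 in Ach1. Over mice it was 0.178 ± 0.0469 in NA1a, 0.166 ± 0.0424 in NA1b and 0.318 ± 0.110 in NA1c (SD, n = 5 each), and the values of the 3 overlapped. NA3 had a UMI most often, in 22 of 99 neurons (22.2%), at levels of 0.384, 0 and 0.293 in replicates 2, 4 and 5. NA3 neurons were also the deepest, with a median of 6773 UMIs. In thinned neurons, 7.78% of NA3 neurons had Sort1, against 5.49% in NA1c and 1.85% (Ach2) to 3.57% (NA1a) in the others. Over matched mice the thinned share was 2.42% ± 2.29 in NA3 (SD, n = 3 mice). It was 4.31% ± 4.46 in NA1c, 4.02% ± 0.916 in NA1a and 1.96% ± 1.82 in NA1b (n = 5 each). With no limit on the level, Sort1 did not pass the F-test (adjusted p = 0.551).

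**Figure D3:**
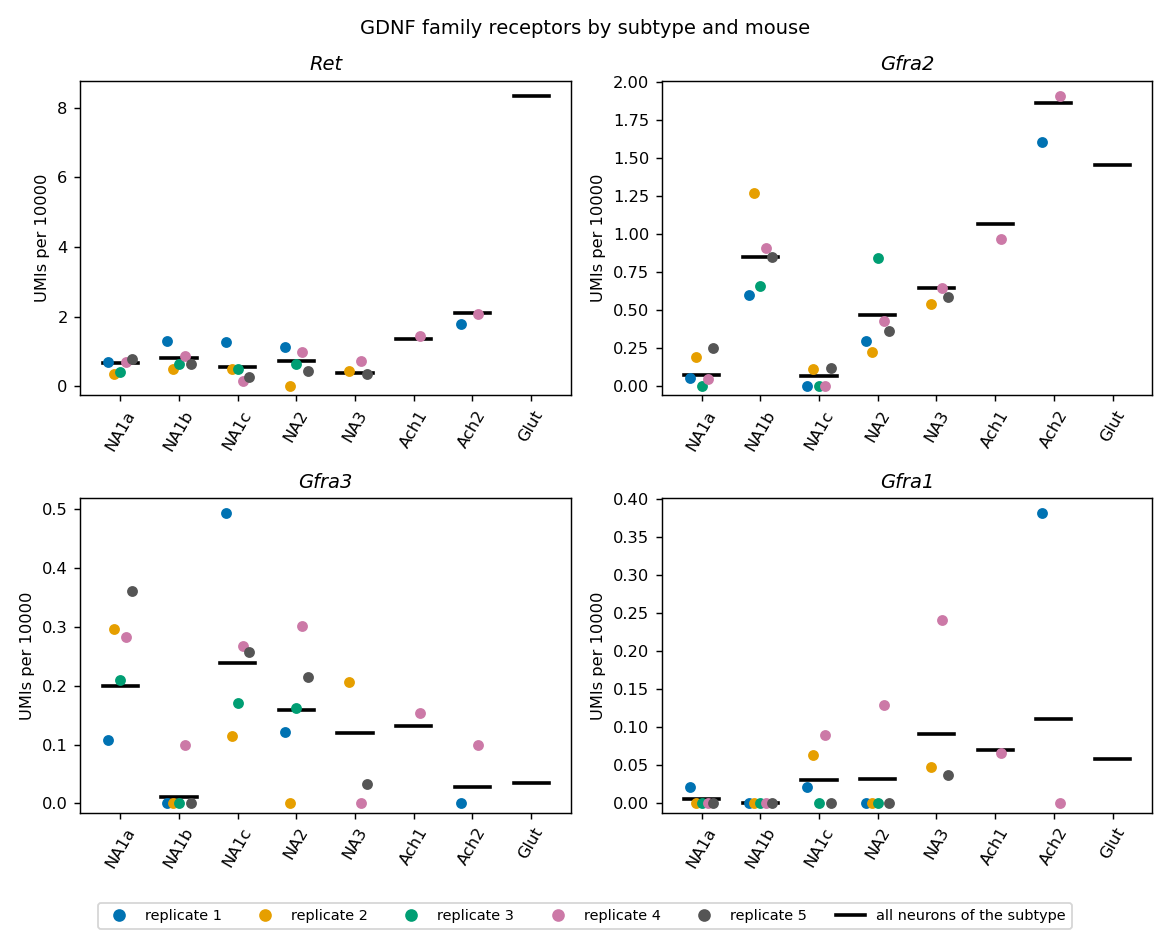
Levels of Ret, Gfra2, Gfra3 and Gfra1 (y axis, UMIs per 10000, linear) in the 8 subtypes (x axis). Each point is a mouse with at least 10 neurons of the subtype and each bar the mean over all neurons of the subtype; Ret stood at 8.35 in Glut and Gfra2 at 1.86 in Ach2.

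Ret, the signaling kinase of the GDNF family (chromosome 6, 118151745 to 118197718, minus strand), was found in 374 of 1303 neurons (28.7%). Among noradrenergic subtypes its level was low and overlapped throughout. It was 0.693, 0.340, 0.413, 0.685 and 0.781 in NA1a of replicates 1 to 5, and 1.30, 0.478, 0.624, 0.873 and 0.645 in NA1b. In NA1c it was 1.27, 0.487, 0.482, 0.154 and 0.264. NA2 had 1.12, 0, 0.645, 0.978 and 0.447 (0.847 ± 0.310 in 4 mice without the shared barcodes), and NA3 had 0.427, 0.714 and 0.359 in replicates 2, 4 and 5.

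Ret stood higher in the cholinergic Ach2 neurons, at 1.80 and 2.06 in replicates 1 and 4, above every value of the noradrenergic subtypes, and 35 of 62 Ach2 neurons (56.5%) had a UMI, or 28 of 47 (59.6%) without the shared barcodes. The 3 other mice had 5 or 6 Ach2 neurons each, with Ret at 0.967, 3.70 and 0.428 in replicates 2, 3 and 5. The log2 difference of Ach2 from the mean of the others was 1.16 (SE 0.49) and did not pass (adjusted p = 0.165), nor did it without the shared barcodes (1.23, SE 0.42, adjusted p = 0.0578). With 5 neurons per profile in place of 10, which takes in all 5 mice, it was 1.42 (SE 0.41) and passed (adjusted p = 0.0106), where 22.8% of genes did. Of the Ach2 neurons so added, 3 of 5 in replicate 2, 4 of 6 in replicate 3 and 1 of 5 in replicate 5 had shared barcodes. Without these neurons the 3 mice kept 2, 2 and 4 Ach2 neurons, too few for such a profile. The F-test on Ret was not settled either. Its adjusted p of 0.156 fell to 0.0481 without the shared barcodes (58% of all genes passed), to 0.0388 without replicate 2, to 0.0189 with a pseudocount of 1, to 0.000149 on mean natural log values and to 0.0285 with 5 neurons per profile in place of 10.

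The highest Ret level was in Glut, 8.35 pooled over 37 neurons, with a UMI in 30 of them (81.1%, 95% exact interval 64.8 to 92.0%). Unlike Ngfr, Ret was found in Glut neurons of each of the 4 matched mice that had any. Its level was 4.72 in 7 Glut neurons of replicate 4, 8.42 in 7 of replicate 5 and 9.87 in the 20 from unmatched mice. With 5 neurons per profile in place of 10, Glut of replicates 4 and 5 could be tested, and Ret exceeded the mean of the 6 other subtypes by 3.22 (SE 0.65, adjusted p = 0.000348 by limma), where 25.1% of all genes passed. In the same limma test Ngfr (-0.99, SE 0.75, adjusted p = 0.343) and Sort1 (0.32, SE 0.76, adjusted p = 0.789) did not pass. Ntrk2 was lower in Glut (-1.59, SE 0.54, adjusted p = 0.0286), with no UMI in replicate 4 and 1 UMI in replicate 5.

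Gfra2, the neurturin co-receptor (chromosome 14, 70890120 to 70979838, plus strand), divided the NA1 subtypes. In NA1b its level was 0.598, 1.27, 0.660, 0.910 and 0.847 in replicates 1 to 5. In NA1a it was 0.0516, 0.194, 0, 0.0467 and 0.252, and in NA1c 0, 0.114, 0, 0 and 0.120. Every NA1b value lay above every NA1a and NA1c value. Transcripts were found in 78 of 311 NA1b neurons (25.1%), 11 of 316 NA1a neurons (3.48%) and 6 of 239 NA1c neurons (2.51%), although NA1a neurons were the deeper, with a median of 6524.5 UMIs against 3252 in NA1b. In the mice not matched to a label, Gfra2 was at 0.503 in 74 NA1b neurons, at 0.0667 in 134 NA1a neurons and at 0 in 23 NA1c neurons.

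NA1b exceeded NA1c in Gfra2 by 2.77 on the log2 scale (SE 0.39, adjusted p = 4.03e-06 by limma), a comparison in which 1.27% of all genes passed. The log2 difference of NA1a from NA1b was -2.31 (SE 0.39, adjusted p = 7.67e-05), where 3.46% passed. The difference of NA1a from NA1c did not pass (0.46, SE 0.39, adjusted p = 0.571). Neither call between NA1b and the other NA1 subtypes was lost in any alternative that was run. Against the mean of all other subtypes, the difference was -1.69 in NA1a (SE 0.31, adjusted p = 0.000271, 7.83% of genes passed) and -2.24 in NA1c (SE 0.31, adjusted p = 8.49e-07, 27.3% passed). In NA1b it was 1.08 (SE 0.31, adjusted p = 0.0120), which no longer passed without replicate 2 (0.98, adjusted p = 0.0586), in thinned neurons (1.36, adjusted p = 0.118), with 5 neurons per profile (1.03, adjusted p = 0.0735) or on mean natural log values (adjusted p = 0.0560).

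NA2 and NA3 lay between. NA2 had Gfra2 at 0.296, 0.224, 0.839, 0.427 and 0.361, and NA3 at 0.539, 0.645 and 0.584. The NA2 mean was 0.429 ± 0.241 (n = 5 mice), and 0.522 ± 0.258 (n = 4) without the shared barcodes. The log2 difference of NA1c from NA2 was -1.85 (SE 0.39, adjusted p = 7.15e-05, 58.2% of genes passed). Without the shared barcodes it was -2.19 (SE 0.43, adjusted p = 5.13e-05, 49.8% passed), and in thinned neurons -1.35 (adjusted p = 0.129). NA1b exceeded NA2 by 0.91 (SE 0.39, adjusted p = 0.0415, 54.4% passed), a call that was lost without the shared barcodes (0.58, SE 0.43, adjusted p = 0.272) and when replicate 1, 2, 4 or 5 was left out (0.62 to 0.94, adjusted p of 0.0749 to 0.234). It was also lost with 5 neurons per profile, no limit on the level, thinned neurons, weights by neurons or profiles relative to their median gene (adjusted p of 0.0660 to 0.179).

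The highest Gfra2 level among tested subtypes was in Ach2, 1.60 and 1.91 in replicates 1 and 4, above every other value. Transcripts were found in 33 of 62 Ach2 neurons (53.2%, 95% exact interval 40.1 to 66.0%). Without the shared barcodes the Ach2 mean was 1.23 ± 0.156 (n = 2), within the range of NA1b, and 26 of 47 neurons (55.3%) had a UMI. The difference from the mean of the others was 2.53 (SE 0.48, adjusted p = 0.000316), and 1.92 (SE 0.50, adjusted p = 0.0101) without the shared barcodes. In neurons thinned to 2000 UMIs it was 2.50 and did not pass (adjusted p = 0.0752). The 16 Ach2 neurons from unmatched mice had a level of 1.81. The log2 difference of NA1b from Ach2, the neighbors at the high end, was -1.21 (SE 0.53) and did not pass (adjusted p = 0.157), and it was -0.67 (SE 0.55, adjusted p = 0.589) without the shared barcodes.

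In Glut, Gfra2 was also uneven among mice, and replicate 4 held both Gfra2 and Ngfr. All 7 Glut neurons of replicate 5 had Gfra2, at a level of 4.97, and 3 of 7 did in replicate 4, at 2.72. Their median depth was 7781 UMIs in replicate 5 and 2225 in replicate 4. None of the 20 Glut neurons from unmatched mice had a UMI (at most 15% by the same limit). The difference of Glut from the mean of the 6 other subtypes, tested on replicates 4 and 5 with 5 neurons per profile, was 2.87 (SE 0.54, adjusted p = 0.000152 by limma) and describes those 2 mice.

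**Figure D4:**
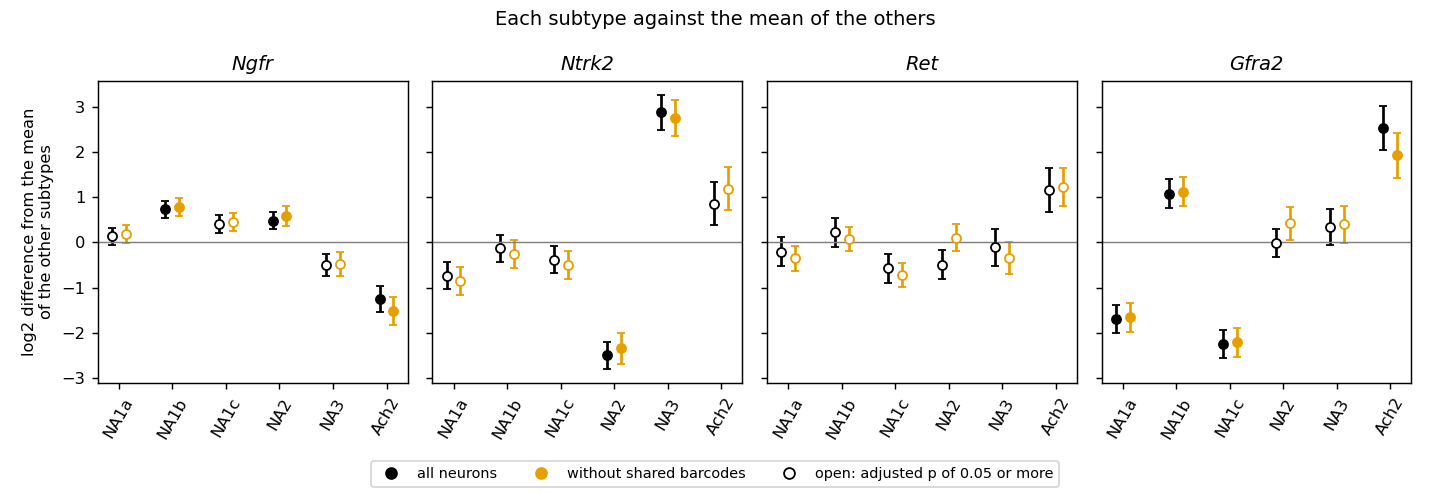
Log2 difference of each subtype from the mean of the other tested subtypes (y axis) for the 4 receptors that reached the level for testing, by subtype (x axis); points are limma estimates and bars their standard errors. Filled points passed at an adjusted p below 0.05, and orange points leave out neurons of shared barcodes; Ntrk2 in NA3 at 2.88 and Gfra2 in Ach2 at 2.53 were the highest.

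Gfra3, the artemin co-receptor (chromosome 18, 34689898 to 34720387, minus strand), was nearly absent from NA1b. It was found in 38 of 316 NA1a neurons (12.0%), 17 of 239 NA1c neurons (7.11%) and 1 of 311 NA1b neurons (0.322%, 95% exact interval 0.00814 to 1.78%). These shares are not at equal depth, with a median of 6524.5 UMIs in NA1a, 2685 in NA1c and 3252 in NA1b. In thinned neurons Gfra3 was found in 6 of 308 in NA1a (1.95%), 9 of 182 in NA1c (4.95%) and 1 of 248 in NA1b (0.403%). The NA1a level was 0.108, 0.297, 0.211, 0.283 and 0.362 in replicates 1 to 5, and the NA1c level 0.494, 0.114, 0.171, 0.268 and 0.258. In NA1b it was 0 in 4 mice and 0.0999 in replicate 4, from a single UMI. Each NA1a and NA1c value thus lay above each NA1b value. In 74 NA1b neurons from unmatched mice no UMI was found, and in 134 NA1a neurons of those mice the level was 0.149. Gfra3 fell short of the level for testing. With no such limit it passed the F-test (adjusted p = 0.0211, where 31.6% of 16948 genes passed), and the difference of NA1a from NA1b was 1.57 and did not pass (SE 0.42, adjusted p = 0.0929).

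In NA2, Gfra3 ran from 0 to 0.302 over 5 mice (0.160 ± 0.112) and was 0.312 ± 0.101 in 4 mice without the shared barcodes. In NA3 it was 0.206, 0 and 0.0324, and in Ach2 and Glut it was found in 1 neuron each.

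Gfra1, the GDNF co-receptor (chromosome 19, 58235604 to 58455909, minus strand), was scarce, with 19 UMIs in 18 of 1303 neurons (1.38%, 95% exact interval 0.821 to 2.17%). It was found in 6 of 99 NA3 neurons (6.06%), in 3 or fewer neurons of each other subtype and in none of 311 NA1b neurons (at most 0.965%). The upper limit set beside a count of 0, here and elsewhere, is 3 divided by the number of neurons, a 1-sided rule. The 95% exact interval of Gfra1 in NA1b reached 1.18%. Intervals and upper limits cover counting error only.

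**Figure D5:**
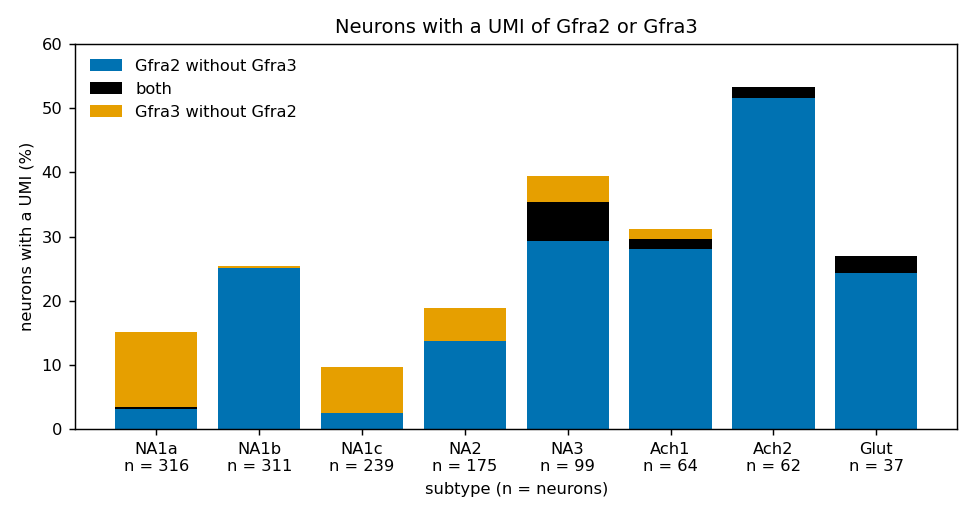
Share of neurons (y axis, percent, from 0) with a UMI of Gfra2 only, of Gfra3 only or of both, stacked, in each subtype (x axis, with the number of neurons). NA1b, Ach1, Ach2 and Glut neurons had almost only Gfra2, NA2 and NA3 mostly Gfra2, and NA1a and NA1c mostly Gfra3. Both were found in 10 neurons, 6 of them NA3. The shares are not at equal depth.

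UMIs of 2 co-receptors were found together in few neurons. Gfra2 was found in 216 of 1303 neurons (16.6%), Gfra3 in 79 (6.06%) and both in 10, of which 6 were NA3 neurons. Gfra1 was found with Gfra2 in 6 neurons and with Gfra3 in 1. Such low shares alone give few pairs, and whether the counts differ from what they give was not tested. Of the 374 neurons with Ret, 260 (69.5%) had no UMI of Gfra1, Gfra2 or Gfra3, a share that depends on depth. Ach2 was the exception, where Ret (56.5% of neurons) and Gfra2 (53.2%) were each common. Whether both met in a neuron more often than these shares give was not tested in Ach2 alone. There 25 of 35 neurons with Ret had a co-receptor, 24 of them Gfra2, so that 38.7% of Ach2 neurons had Ret and Gfra2 together, or 40.4% without the shared barcodes. The share was 18.9% in Glut (20.6% without them), 9.003% in NA1b, 7.81% in Ach1, 7.07% in NA3, 4.57% in NA2 (6.67% without them), 2.22% in NA1a and 0 in NA1c.

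Whether neurons with a given co-receptor more often had Ret was compared within each mouse after thinning neurons to 2000 UMIs. Among neurons with Gfra2, 25.0%, 8.70%, 21.4%, 35.0% and 31.2% had Ret in replicates 1 to 5, against 16.5%, 11.2%, 12.6%, 14.4% and 8.88% of neurons without it. The share was higher in 4 of 5 mice, by 11.6 percentage points on average, and did not pass the two-sided exact permutation test over mice (p = 0.125, adjusted over the 3 co-receptors p = 0.188), in which 5 mice can give no p below 0.0625. Compared within subtypes, the difference was 2.80 points (exact permutation p = 0.562). For Gfra3, none of 19 thinned neurons with it had Ret, against 14.1% ± 3.10 (SD, n = 5 mice) without it (exact permutation p = 0.0625, adjusted p = 0.188). With all UMIs counted the Gfra3 direction turned, with Ret more frequent by 3.61 points (exact permutation p = 0.62), so no direction can be read from it. For Gfra1 only 8 thinned neurons had it (difference 16.4 points, exact permutation p = 0.562), and without replicate 1 the difference was -0.458 points.

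Ligands of these receptors were found in few of the neurons. Bdnf was found in 12 neurons, Nrtn in 3, Artn and Ntf5 in 1 each and Ntf3 in none of 1303 (at most 0.230%). None of these reached the level for testing.

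Of the other genes of the pathway, 127 of the 130 listed were in the table, counting the ligands, and 83 were tested. Across subtypes 52 of the 83 passed (62.7%), near the 65.5% of all genes, and without the shared barcodes 41 did (49.4%), beside 58% of all genes. Among other receptors and co-receptors 4 of 6 passed. Kidins220, a scaffold that binds Trk receptors and p75, had a level of 2.40 ± 0.624 in NA1c and 0.821 ± 0.411 in NA2 (1.03 ± 0.454 without the shared barcodes, n = 4; F-test adjusted p = 1.53e-05). Islr2, a membrane protein known to interact with Trk and Ret receptors, was at 0.658 ± 0.302 in NA1b and at 0.0271 ± 0.0383 in Ach2 (0.0352 ± 0.0498 without them, n = 2; adjusted p = 0.000663). Among adaptors 6 of 14 passed. Plcg1, the phospholipase recruited to active Trk receptors, was at 0.497 ± 0.235 in NA1b and at 0.00635 ± 0.00948 in NA2 (0.0180 ± 0.0271 without the shared barcodes; adjusted p = 2.94e-06). Rapgef1, an exchange factor for Rap1, was at 0.402 ± 0.296 in NA1a and 0.0334 ± 0.0510 in NA2 (0.0595 ± 0.0771 without them; adjusted p = 0.000604).

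Of the Ras and MAP kinase arm 12 of 18 passed. Hras was at 5.85 ± 1.22 in NA2, or 5.22 ± 1.36 without the shared barcodes, against 1.15 ± 0.395 in NA3 and 1.77 to 2.70 in the other tested subtypes (adjusted p = 2.19e-08). Rap1a was highest in NA3, at 1.70 ± 0.444 (adjusted p = 4.19e-05), and was at 1.34 in Ach1 of replicate 4, which was not in the test. Of the PI3-kinase arm 9 of 14 passed. Pik3cd, a catalytic subunit, was at 1.78 ± 0.654 in Ach2 and 0.208 ± 0.193 in NA2 (2.32 ± 0.844 and 0.196 ± 0.148 without the shared barcodes; adjusted p = 3.09e-07). Pik3r1, a regulatory subunit, was at 2.33 ± 0.509 in NA3 and between 0.396 and 0.643 in the other tested subtypes (adjusted p = 0.000160). In Ach1 of replicate 4 it was at 0.911.

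Of the genes that act downstream of p75, 11 of 16 passed. Mapk8, the kinase JNK1, was at 1.40 ± 0.307 in Ach2, the subtype with the least Ngfr, and at 0.136 ± 0.0657 in NA2 (1.82 ± 0.408 and 0.141 ± 0.0509 without the shared barcodes; adjusted p = 1.85e-08). Rhoa, a GTPase that p75 can activate, was at 3.53 ± 1.10 in NA3 and 3.03 ± 0.691 in NA2 (2.93 ± 1.44 without them), against 1.10 to 1.42 in the other tested subtypes (adjusted p = 5.63e-07). In Ach1 of replicate 4, which was not in the test, Rhoa was at 3.08. Of the genes of receptor endocytosis and axonal return 10 of 15 passed. Dnm2, a dynamin that cuts endocytic vesicles free, was at 1.37 ± 0.403 in NA1b and 0.121 ± 0.0890 in NA2 (0.202 ± 0.0510 without the shared barcodes; adjusted p = 7.86e-09). Myo6, a motor that moves endocytic vesicles, was at 0.739 ± 0.337 in NA1b and at 0 in NA2 of all 5 mice (adjusted p = 1.97e-08).

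The genes whose pattern was most like a tested receptor were ranked by Pearson's r of mouse-adjusted log2 levels over the 25 profiles, which share mice and library depth. For Ntrk2 they included Hspa1b (r = 0.892) and Ssbp2 (0.892). Hspa1b, a heat shock protein of the Hsp70 family, was at 11.9 in NA3 and 10.1 in Ach1, and at most 3.66 elsewhere. For Ngfr they were Cyb561 (r = 0.857), Bcam (0.845) and Slc6a2 (0.819). Slc6a2, the noradrenaline transporter, was at 49.4 in Glut and at 1.65 in Ach2, the 2 ends of the Ngfr order. For Ret they were Rab22a (0.774), Alcam (0.771) and Fbxw7 (0.729), and for Gfra2 they were Edn3 (0.723), Laptm4b (0.687) and Necab1 (0.679). Edn3, the peptide endothelin 3, was at 0.652 in NA1b and at 0.0343 in NA1a and 0.0780 in NA1c. The r of Ret with Gfra2 was 0.575, that of Ngfr with Ntrk2 -0.418 and that of Ngfr with Ret 0.0631.

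Neurons traced from the heart or the paws were few. Among 6 neurons with GFP from the heart, Ngfr was found in 3, Sort1 in 3, Ret in 2, Gfra2 in 2, and Ntrk2, Ntrk3 and Gfra3 in 1 each. Among 20 neurons with tdTomato from the paws, Ngfr was found in 13, Gfra2 in 8, Ntrk2 in 6, Ret in 5, Sort1 in 3 and Ntrk3 in 1. Gfra1 was found in neither set and Gfra3 in none of the paw neurons. The median depth was 5835.5 UMIs in the GFP neurons and 2699.5 in the tdTomato neurons, and with 6 neurons no comparison between the sets was made.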

How the data were processed

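Bilateral stellate ganglia of 8 mice were dissociated and sequenced on the 10x Genomics platform. Per the labels and the study's methods, the authors aligned reads to mm10 with Cell Ranger 2.1.1, filtered, clustered and named the neurons with Seurat, and deposited natural log values, ln(1 + UMIs per 10000 UMIs of the neuron). UMIs were recovered from the step of each neuron (100% of nonzero values whole within 0.01; 88.0% of values were 0). Neither the labels nor the methods describe doublet removal, and none was done here. A level is the mean of the linear value over the neurons of a mouse and subtype. With at least 10 neurons and a mean level of 0.25, log2(level + 0.1) was fitted in limma 3.58.1 (R 4.3.3) with mouse as a block and a variance trend. P-values were adjusted by Benjamini-Hochberg over all 6385 genes of each contrast, at a threshold of 0.05. Fold changes on this scale understate the change of low genes. Profiles of 1 mouse come from the same animal, and their residuals correlated at 0.0649 (51 pairs) against -0.0623 (249 pairs) between mice. The fit was tested on simulated data. Share comparisons used 813 neurons thinned to 2000 UMIs and exact sign-flip permutation over mice (Python 3.11.15, SciPy 1.17.1). Named genes were the 8 receptors, the 2 genes of each list with the smallest F-test p among those passing, and the 3 most correlated with each tested receptor; results on some genes are not reported here. The receptors and lists were chosen with earlier results of these data known. Gene positions are from GENCODE (GRCm38), and no exon of another gene on the same strand overlaps one of a receptor. The names of the 5 matched mice share the number 2, the batch that the study's supplement gives them, and the 3 others do not.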

Additional observations from a re-analysis of the deposited data

Results flagged for a closer look

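In 5 of 39 groups of mice, a single mouse lay far from the others. Chance was taken to mark about 1 group in 20. That rate does not hold where the other mice of a group are all at 0. No excess over chance is therefore read from the 5 groups. In NA2 of replicate 3, Ntrk2 was at 0.195 from 3 UMIs in 49 neurons, against 0 to 0.0361 in the other mice, and Ntrk3 was at 0.503 from 5 UMIs, against 0 to 0.113. Gfra1 was at 0.0217 in NA1a of replicate 1 and at 0.129 in NA2 of replicate 4, and Gfra3 was at 0.0999 in NA1b of replicate 4. Each of those 3 values came from 1 UMI, and the other 4 mice of the group were at 0.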

How the results depend on the processing

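Of 35 receptor differences that passed, 14 passed in every alternative in which the gene was tested. The count over pairs of subtypes, 26, was 16 in neurons thinned to 2000 UMIs, where fewer neurons and UMIs remained, and 16 without the 10% of neurons with the most satellite glia transcripts, where NA3 no longer had 10 neurons in 2 mice and could not be compared. Leaving out each mouse gave 3 to 4 receptors past the F-test, 8 to 9 differences from the other subtypes and 18 to 24 pairs (18 without replicate 4). Without the replicate block the counts were 3, 10 and 27. Ret beside Gfra2 ran from 8.86 to 15.1 points without single mice, beside Gfra3 from -14.9 to -13.3 and beside Gfra1 from -0.458 to 24.7; beside Gfra3 it was 3.61 with all UMIs. The alternatives without shared barcodes and with each profile set relative to its median gene were chosen after seeing the data. At this depth Ntrk3, Sort1, Gfra1 and Gfra3 stayed below the level asked for testing.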

Other observations

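Neurons held UMIs of 1.58 of the 8 receptors on average, and 234 of 1303 (18.0%) held none. NA3 had the most, 2.36 per neuron, followed by Glut with 2.32 and Ach2 with 2.097, and NA2 the fewest, 1.18. The median depth of these subtypes was 6773, 3285, 4414.5 and 2461 UMIs. Among co-receptors outside the 8, Gfra4, the persephin co-receptor, was found in 137 neurons (10.5%), at 0.504 in Glut and 0.0203 in NA3. Sorl1, a sorting receptor of the sortilin family, was found in 131 neurons and stood at 1.17 in Glut and 0.773 in Ach2, against 0.0496 to 0.529 in the other subtypes. Sorcs1, of the same family, was at 0.661 in NA3 and at most 0.318 elsewhere. None of the 3 reached the level for testing.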
